A study of Solanum lycopersicum with 12 samples.

Results

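A set of 72 genes, of 34075 gene IDs counted in tomato (Solanum lycopersicum) seedlings, was both abundant and strongly higher after the hormone abscisic acid (ABA), and had an intermediate level after iSB09, an ABA receptor agonist. The set was chosen on the measured levels in CPM, the count scaled to a library total of 1000000. A member had a mean of at least 1 CPM in mock and at least 50 CPM in ABA, a log2 ratio of ABA to mock of at least 2, and its lowest ABA library above its highest mock library. The log2 ratio of iSB09 to mock, divided by that of ABA to mock, is called the log2 share here, and lay above 0.25 and below 0.75. Because these values chose the members, their levels in the 3 groups, and any count of them that passed a test between those groups, are a description and support nothing. All groups were wild-type whole seedlings, grown in plates to 3 days after germination and then for 8 days in 3 ml of liquid Murashige and Skoog medium, kept at 22 °C under 16 h light and 8 h dark. Fresh medium then carried 0.1% DMSO (mock), 10 µM ABA or 20 µM iSB09 for 3 h. Only the mock medium has a recorded DMSO content, so solvent and treatment cannot be told apart, and the doses of ABA and iSB09 differ. Each group had 3 libraries, described by the submitters as independent biological replicates with nothing further stated about what was independent. The remaining group, 10 µM iCB, is not analysed here.

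ABA is the hormone that plants make more of when water is short. It binds receptors of the PYR/PYL/RCAR family, which then inhibit clade A PP2C phosphatases, the repressors of the pathway. SnRK2 kinases freed from these phosphatases act on bZIP transcription factors of the AREB/ABF/ABI5 group, which switch on genes for protective proteins such as late embryogenesis abundant (LEA) proteins and dehydrins, for ABA breakdown, and for the phosphatases themselves. An agonist enters this chain at the receptor. The count table and the reference used here do not pair the gene IDs with names (0 of 34075 IDs were found in the RefSeq gene table), so single members are given by ID and without a role, and the seedling tissue could not be checked against marker genes.

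Lists of the pathway's families, 56 IDs in 7 lists, placed 9 of the 72 members. The lists were written from general knowledge and not checked against an annotation. Earlier results of these data were known when they were written, so the counts are a description. The listed clade A PP2C phosphatases gave 5 members of 9 IDs, the LEA, dehydrin and ASR list 2 of 9 IDs, the AREB/ABF/ABI5 list 1 of 6, and the list of ABA 8′-hydroxylases, which start ABA breakdown, 1 of 5. No listed PYL receptor (15 IDs), SnRK2 kinase (7) or ABA synthesis gene (5) was a member; the tested IDs of these 3 lists had a log2 ratio of ABA to mock under 2 in 14 of 14, 7 of 7 and 3 of 4 cases. The other 63 members stood on no list. The 5 phosphatase members spanned 4.61 to 93.8 CPM in mock, 56.6 to 215 CPM in iSB09 and 213 to 461 CPM in ABA (group means), and their log2 shares ran from 0.474 to 0.626 with a median of 0.546. The 2 LEA-list members had shares of 0.618 and 0.693. Their order depended on mock replicate 3, without which the former had 0.7097 and the latter 0.6963. With group medians they had 0.7255 and 0.665. Over all 72 members the share from group means ran from 0.332 to 0.733, and the LEA-list value of 0.693 was among the 5 nearest the upper limit.

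The listed genes outside the set, 43 of which were tested, were left out by the same limits on the measured levels, so their counts too are a description. With edgeR's quasi-likelihood test and Benjamini-Hochberg adjustment over all 21424 genes tested, 16 of the 43 were higher in ABA than in mock, beside 9.76% of all genes, and 11 were lower, beside 9.90% of all genes. In iSB09 4 of the 43 were higher than in mock, beside 2.63% of all genes, and 9 were lower, beside 2.48% of all genes. The PYL receptors, which bind ABA, gave 9 of the 11 lower in ABA and 8 of the 9 lower in iSB09, of 14 tested, and none was higher in either. Their median log2 ratio to mock was -0.88 in ABA and -0.63 in iSB09, where the ABA median was -0.00 over all tested genes. In ABA 2 of 4 phosphatases, 3 of 7 SnRK2 kinases, 3 of 5 AREB/ABF/ABI5 genes and 2 of 4 synthesis genes were higher and none was lower. The hydroxylases had 2 of 4 higher and 1 lower, and the LEA list 4 of 5 higher and 1 lower. In iSB09 1 gene was higher on each of the phosphatase, AREB/ABF/ABI5, synthesis and LEA lists, 1 synthesis gene was lower, and no kinase or hydroxylase was called. Of the 4 phosphatase IDs outside the set, 3 had a log2 ratio under 2, 2 had an ABA mean under 50 CPM and 1 a mock mean under 1 CPM, some failing more than 1 limit.

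The 9 libraries held 21863058 to 22098966 counts, and the lowest count of any member in any library was 16, in mock. Libraries of the same group differed by more than counting error, with a chi-square over genes of 7.47 to 28.5 per degree of freedom.

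Together the members took 0.144% ± 0.00287 of all counts in mock, 0.462% ± 0.0508 in iSB09 and 1.12% ± 0.142 in ABA (mean ± SD, n = 3). By library the values were 0.141%, 0.146% and 0.145% in mock, 0.437%, 0.521% and 0.429% in iSB09, and 1.27%, 1.08% and 0.996% in ABA. The 3 groups did not overlap: the summed level was 7.77-fold that of mock in ABA and 3.21-fold in iSB09. In iSB09 it was 41.3% of the ABA level. The most abundant member held 11.1% of the summed ABA level, and the 6 most abundant held 29.6%. RNA came from whole seedlings, so fewer or more cells of a type and less or more RNA per cell cannot be told apart.

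Across single members the group mean ran from 1.20 to 289 CPM in mock, with a median of 11.6 CPM. In ABA it ran from 51.1 to 1242 CPM, with a median of 91.0 CPM, and in iSB09 from 9.98 to 842 CPM, with a median of 37.3 CPM. The log2 ratio of ABA to mock had a median of 3.10 and reached 7.90, and 21 members were at least 16-fold higher in ABA. The log2 ratio of iSB09 to mock ran from 0.86 to 5.67 with a median of 1.64, and 5 members were under 2-fold. Both ratios use the same mock libraries. A member thus stood at a median of 8.59-fold its mock level in ABA and 3.12-fold in iSB09.

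**Figure D1:**
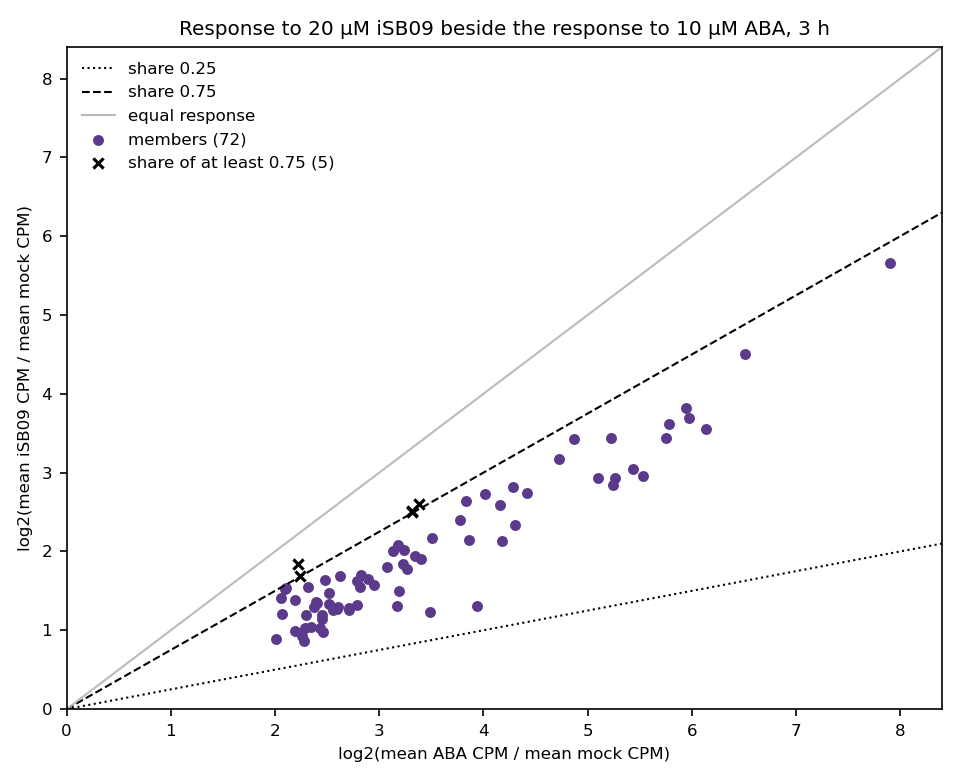
Each point is a gene, placed by the log2 ratio of mean CPM in ABA to mock (horizontal) and in iSB09 to mock (vertical); lines mark log2 shares of 0.25, 0.75 and an equal response. The 72 members lie under the 0.75 line, and the 5 crosses on or above it met the ABA and mock limits but not the upper limit of the share. No point lies on or under the 0.25 line, and the lowest log2 share is 0.332.

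The lower limit removed no gene. Of 77 genes that met the limits on mock and ABA, 72 were members, 0 had a log2 share at or under 0.25 and 5 had a share at or over 0.75. The members' shares ran from 0.332 to 0.733, with a median of 0.568 and an SD of 0.0937 between genes. By steps of 0.1 from 0.25 upwards, 1, 9, 20, 28 and 14 members fell in the successive intervals, and 52 had a share over 0.5. Just inside the upper limit stood Solyc08g067960.3 at 0.733 and Solyc05g054890.4 at 0.724; just outside stood Solyc05g052370.3 at 0.753, Solyc09g065430.4 at 0.754 and Solyc06g082240.2 at 0.759. The other two excluded genes, Solyc05g052360.2 and Solyc11g010930.2, had 0.772 and 0.827. For the ABA level the nearest genes were Solyc07g040680.3 inside at 51.1 CPM and Solyc04g014280.1 outside at 49.3 CPM, and for the log2 ratio of ABA to mock Solyc01g006720.4 inside at 2.01 and Solyc07g066360.1 outside at 1.99. The mock limit had Solyc03g111100.1 inside at 1.20 CPM and Solyc06g051940.4 outside at 0.879 CPM. The level and fold limits cut through a continuous range: 111 further genes met all limits but that on the ABA level, and 456 all but that on the log2 ratio of ABA to mock.

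All 72 members were among the genes tested, and all 72 were called higher in ABA than in mock (edgeR, adjusted p under 0.05), a call made for 9.76% of all tested genes. For iSB09 against mock 70 of 72 were called higher, beside 2.63% of all genes. For iSB09 against ABA 67 of 72 were called lower, beside 4.10% of all genes. The rule used these values, so the counts were largely fixed by the choice and nothing is read from them. The 2 members not called for iSB09 against mock, Solyc10g075070.3 and Solyc10g083380.2, and the 5 not called for iSB09 against ABA, Solyc08g067960.3, Solyc05g054890.4, Solyc03g115960.3, Solyc04g014320.1 and Solyc04g014330.1, were named after their values were seen.

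The most abundant member in ABA was Solyc08g067960.3. Its mock libraries 1 to 3 had 320.0, 271 and 277 CPM, its iSB09 libraries 641, 1040.1 and 845 CPM and its ABA libraries 1490.2, 1078 and 1158 CPM. It was also the most abundant member in mock, and its iSB09 replicate 2 came close to its lowest ABA library. Its log2 share, 0.733 ± 0.167 (SD over the 3 iSB09 libraries, each set against the mock and ABA means), was the highest of the set. In Solyc02g084850.3, mock libraries 1 to 3 had 4.83, 5.84 and 6.2 CPM, iSB09 libraries 167, 115 and 101 CPM and ABA libraries 595, 419 and 518 CPM. From group means of 5.62 ± 0.712 and 511 ± 87.8 CPM (SD, n = 3) it had a log2 ratio of ABA to mock of 6.50 and one of iSB09 to mock of 4.51. Here a gene scarce in mock reached the second highest ABA level of the set, and the 3 groups lay far apart.

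In Solyc03g121880.4, mock libraries 1 to 3 had 95.1, 88.3 and 98.1 CPM, iSB09 libraries 207, 208 and 229 CPM and ABA libraries 506, 475 and 403 CPM. The libraries of each group lay close together, the groups did not overlap, and the log2 share was 0.519 ± 0.037. Solyc05g052980.4 had a similar pattern at a lower level, with group means of 63.9 ± 10.1 CPM in mock, 178 ± 15.1 CPM in iSB09 and 365 ± 42.7 CPM in ABA and a share of 0.586 ± 0.0487. In Solyc01g105770.2, mock libraries 1 to 3 had 23, 31.1 and 28 CPM, iSB09 libraries 173, 245 and 95.4 CPM and ABA libraries 510.4, 341 and 321 CPM. Its iSB09 libraries spread over more than 2-fold, with replicate 2 the highest and replicate 3 the lowest, and its share was 0.69 ± 0.18.

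Solyc06g067980.3 had the largest log2 ratio of ABA to mock, 7.90. Its mock libraries had 1.09, 1.51 and 1.67 CPM, its iSB09 libraries 62.1, 69.7 and 85.1 CPM and its ABA libraries 369, 319 and 333 CPM. The gene was close to the mock limit of 1 CPM and among the 6 most abundant members in ABA, with a fold of 239 for ABA and 50.8 for iSB09. Solyc03g111100.1 went from 1.2 ± 0.347 CPM in mock to 14.1 ± 1.15 CPM in iSB09 and 84 ± 20.5 CPM in ABA, log2 ratios of 3.56 and 6.13. Solyc01g096320.3 had 1.91, 1.96 and 1.13 CPM in mock, 25.7, 24.4 and 20.8 CPM in iSB09 and 125, 106 and 77.4 CPM in ABA. In both, each iSB09 library was several-fold above every mock library and several-fold below every ABA library.

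Solyc03g096670.3 repeated that order with little spread in iSB09: 4.69, 4.98 and 4.16 CPM in mock, 59.3, 55.8 and 54.8 CPM in iSB09 and 296, 258 and 206 CPM in ABA. Its log2 share, 0.626 ± 0.0104, was nearly the same in each iSB09 library. Solyc03g116390.4 was the most variable member within groups. Mock libraries had 0.865, 0.73 and 7.29 CPM, iSB09 libraries 43, 17.1 and 54.4 CPM and ABA libraries 208, 189 and 161 CPM. Mock replicate 3 alone holds its mock mean above the limit of 1 CPM, and without that library the gene is not a member.

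**Figure D2:**
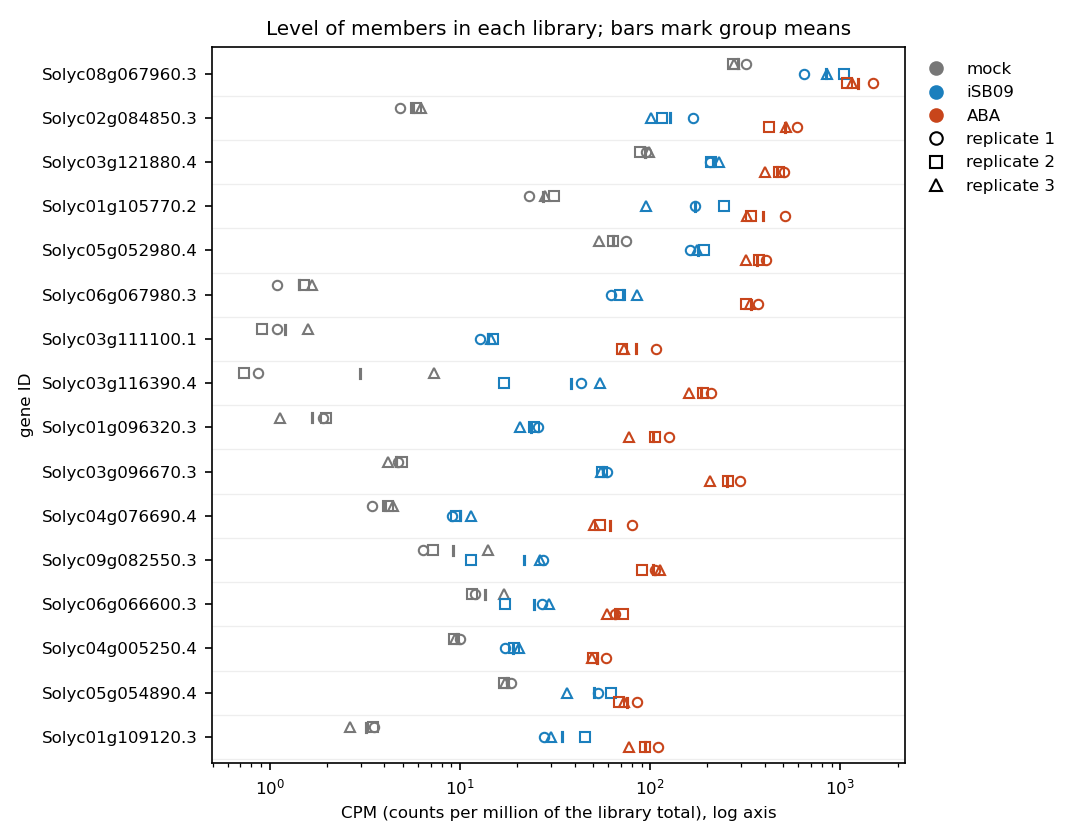
Level in CPM (horizontal, log axis) of 16 members in each of the 9 libraries: the 6 most abundant in ABA, the 6 with the largest log2 ratio of ABA to mock, and the 4 nearest each limit of the log2 share, with genes that qualify more than once drawn once. Symbols mark the replicate, colours the treatment and short bars the group means; iSB09 means lie between the mock and ABA means in all 16, and iSB09 replicate 2 of Solyc09g082550.3, at 11.4 CPM, lies under its highest mock library, at 14.0 CPM.

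Several further members had little spread. Solyc07g040990.4 had 30.7, 33.6 and 30.7 CPM in mock, 100.3, 110.4 and 116 CPM in iSB09 and 333, 309 and 271 CPM in ABA, log2 ratios to mock of 1.78 for iSB09 and 3.26 for ABA. Solyc06g076400.3 had 37.8, 29.3 and 25.5 CPM in mock, 72.3, 79 and 80 CPM in iSB09 and 212, 232 and 195 CPM in ABA. Both kept the 3 groups well apart, with shares of 0.546 ± 0.0326 and 0.474 ± 0.0286. Solyc05g012210.4, one of the 3 members with the smallest spread within groups, had 18.7, 17.2 and 16.1 CPM in mock, 42.2, 37.5 and 46.3 CPM in iSB09 and 116, 116 and 108 CPM in ABA, and a share of 0.471 ± 0.0563. Solyc08g075320.4 started lower, at 3.64, 3.06 and 4.34 CPM, and had 26.8, 20.4 and 26.5 CPM in iSB09 and 87.7, 74.9 and 72.9 CPM in ABA. Its share, 0.62 ± 0.0504, was above those of the 3 genes before it, by more than the SD over libraries of each.

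Other members varied more. In Solyc01g105767.1, close to Solyc01g105770.2 in the ID numbering, mock libraries had 14.7, 14.8 and 13.7 CPM, iSB09 libraries 104, 146 and 54 CPM and ABA libraries 372, 238 and 229 CPM. Solyc04g014290.1 had 10.7, 16.9 and 17.2 CPM in mock, 50, 62.2 and 28 CPM in iSB09 and 119, 119.6 and 93.9 CPM in ABA. Solyc09g065420.3 had 10.3, 13.8 and 10.3 CPM in mock, 44.4, 62.8 and 30.3 CPM in iSB09 and 116, 96.4 and 89 CPM in ABA. In these 3, as in Solyc01g105770.2, replicate 2 was the highest and replicate 3 the lowest iSB09 library. Solyc04g015200.3 differed from them in being lowest in replicate 1 and highest in replicate 3 of iSB09, with 18.8, 27.8 and 33.8 CPM between 6.65, 7.94 and 7.83 CPM in mock and 70.2, 78.9 and 60.7 CPM in ABA. Solyc03g005210.4 had 82.7, 107 and 80.1 CPM in iSB09 and a share of 0.635 ± 0.06, and its neighbour Solyc03g005200.3 had 40.4, 36.6 and 33.2 CPM and 0.63 ± 0.0649. The latter 2 thus had shares that differed by less than their spread over libraries, although their ABA means were 233 ± 35.7 and 64.4 ± 3.04 CPM.

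At the low end of the share, Solyc04g076690.4 had 3.46, 4.2 and 4.43 CPM in mock, 9.05, 9.49 and 11.4 CPM in iSB09 and 79.8, 54.7 and 50.8 CPM in ABA. Its log2 share was 0.332 ± 0.0444, and single iSB09 libraries gave 0.296, 0.314 and 0.38. This low share was thus present in every iSB09 library. Solyc09g082550.3, at 0.354 ± 0.205, was not of that kind: its iSB09 libraries had 27.2, 11.4 and 26.4 CPM and gave shares of 0.448, 0.0871 and 0.436. For Solyc06g066600.3 the shares were 0.44, 0.156 and 0.489, and for Solyc04g005250.4 they were 0.347, 0.407 and 0.441. In Solyc09g082550.3 and Solyc06g066600.3 replicate 2 was thus far below the other 2 libraries, whereas all 3 libraries of Solyc04g005250.4 lay between 0.347 and 0.441.

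At the high end, single iSB09 libraries gave Solyc08g067960.3 shares of 0.546, 0.878 and 0.736 and Solyc05g054890.4 shares of 0.758, 0.866 and 0.498, so that both were highest, and above 0.75, in replicate 2. Solyc06g067980.3 gave 0.689, 0.71 and 0.747 and Solyc01g109120.3 gave 0.637, 0.787 and 0.664. Solyc06g067980.3 was the steadiest of these 4. The members nearest the median share included Solyc04g078840.3, at 0.566 ± 0.0142, and Solyc03g007230.4, at 0.575 ± 0.0167. Solyc04g078840.3 was also the member with the smallest spread within groups: 36.3, 33.5 and 34.9 CPM in mock, 87.8, 91.6 and 88.1 CPM in iSB09 and 201, 186 and 161 CPM in ABA.

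Over the whole set the SD of a member's share over the 3 iSB09 libraries had a median of 0.0868. Between members, the SD of the share from group means, which the rule bounds, was 0.0937. With a single iSB09 library in place of the group mean, 52 of 72 members lay between 0.25 and 0.75 in all 3 libraries, 15 lay at or above 0.75 in at least 1 and 5 at or under 0.25 in at least 1. The median over members differed little, at 0.547, 0.581 and 0.534 with replicates 1, 2 and 3, while the SD between members with that single library was 0.0998, 0.183 and 0.127. The shares were most spread in replicate 2, where they ran from 0.0138 to 0.878.

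**Figure D3:**
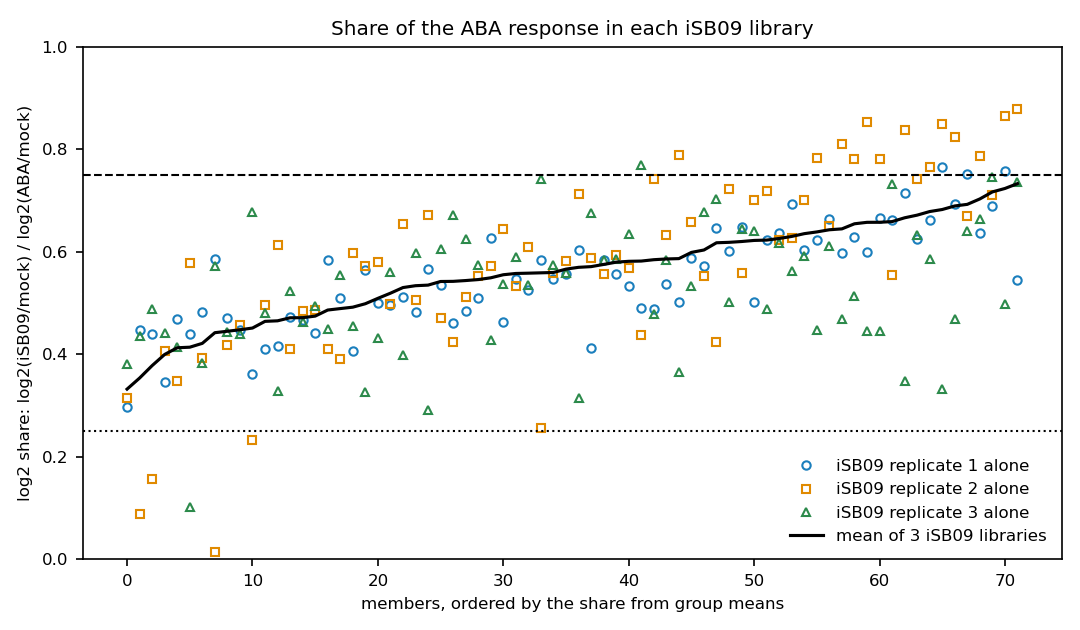
Log2 share (vertical) of the 72 members, ordered along the horizontal axis by the share from group means (black line); symbols give the share when 1 iSB09 library is used alone, and horizontal lines mark 0.25 and 0.75. Replicate 2 lies above 0.75 for many members at the right and falls to 0.0138 at the lowest, whereas the line stays between 0.332 and 0.733.

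Replicates 2 and 3 of iSB09 differed in both directions. The log2 ratio of replicate 2 to replicate 3 ran from -1.67 to 1.51 with a median of 0.06; 10 members were at least 2-fold higher and 5 at least 2-fold lower in replicate 2. These 15 are 20.8% of the members, beside 1.31% of the 12723 tested genes with a mean of at least 10 CPM and a read in every library. In those 12723 genes the median log2 ratio of replicate 2 to replicate 3 was -0.13. Replicate 2 was the highest iSB09 library in 36 members, or 50%, beside 22.5% of those genes. It was the lowest in 19 members, or 26.4%, beside 57.2% of those genes. These percentages use library totals. The TMM factors were 0.951 for replicate 2 and 1.04 for replicate 3, so TMM scaling raises replicate 2 against replicate 3. With TMM, replicate 2 was the highest in 43 members and the lowest in 14. The percentages over all genes were not recomputed with TMM, and how far the 57.2% depends on scaling was not tested. The within-group SD of log2 CPM had a median of 0.28 in members and 0.15 in those 12723 genes. These values describe members chosen for their means and are not tests. Of the members above, Solyc03g116390.4, Solyc01g112230.4 and Solyc10g075070.3 had the largest within-group spread, and all 3 were at least 2-fold lower in replicate 2. Solyc10g075070.3 had 37.1, 14.6 and 36.3 CPM in iSB09 beside 8.11, 17.4 and 17.5 CPM in mock, and Solyc01g112230.4 had 12.1, 10.6 and 26.1 CPM beside 1.28, 2.19 and 3.35 CPM. In mock as in iSB09, 1 library of Solyc10g075070.3 stood well under the other two.

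The ABA libraries differed mainly in one direction. Replicate 1 held the highest ABA level in 56 of 72 members and replicate 3 the lowest in 59, or 77.8% and 81.9%; among the 12723 genes the same libraries were highest and lowest in 55.5% and 50.5%. With TMM-scaled library sizes the counts for members were 53 and 51, while the percentages over the 12723 genes were not recomputed with TMM. Without ABA replicate 1 the set had 64 members, all from the 72, and without ABA replicate 3 it had 80, including all 72. The difference between members and all genes in these shares was not tested.

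**Figure D4:**
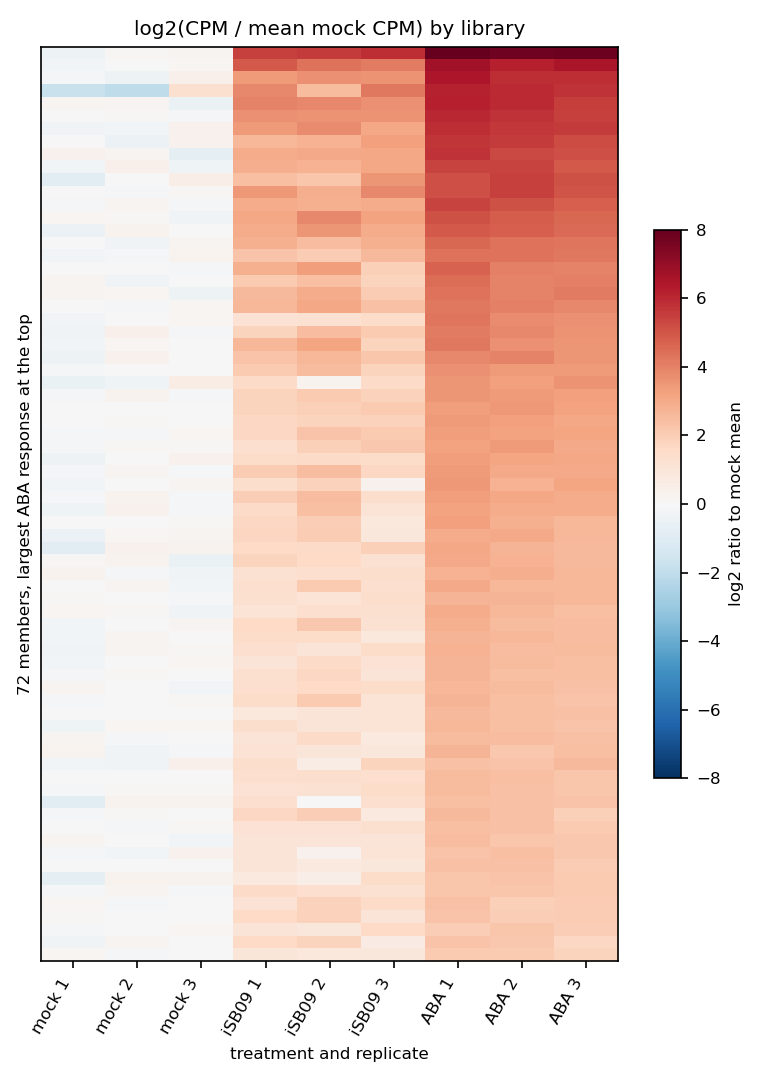
Log2 ratio of each library's CPM to the gene's mean mock CPM (colour) for the 72 members (rows, largest ratio of ABA to mock at the top) in the 9 libraries (columns). All 3 iSB09 columns lie between the mock and ABA columns in 68 rows, ABA replicate 1 is the highest ABA column in 56 rows, and the fourth row from the top, with 2 low mock libraries, is Solyc03g116390.4.

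In 68 of 72 members the libraries were ordered without overlap, every ABA library above every iSB09 library and every iSB09 library above every mock library. This order was found in 3.60% of all tested genes, and the rule favours it. All 4 exceptions involved replicate 2 of iSB09: without that library all 72 were ordered, while 70 were without ABA replicate 3 and 69 without mock replicate 3. In Solyc04g014320.1 iSB09 replicate 2, at 231 CPM, lay above ABA replicate 3, at 228 CPM, and in Solyc04g014330.1 the same libraries had 199.9 and 186 CPM. In Solyc09g082550.3 replicate 2 of iSB09, at 11.4 CPM, lay under mock replicate 3, at 14 CPM, and Solyc10g075070.3 had 14.6 CPM beside 17.5 CPM. Overlap was thus with ABA for the former pair and with mock for the latter.

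How intermediate the iSB09 response was depended on the scale. On the linear scale, the rise in CPM from mock to iSB09 had a median of 28.5% of the rise from mock to ABA, with a range of 10.3% to 58.0%. Only 3 members passed 50% and 22 were under 25%, whereas 52 of 72 had a log2 share over 0.5. Solyc06g067980.3, with a log2 share of 0.717, had a linear share of 20.9%, and Solyc08g067960.3, with a log2 share of 0.733, had 58%. Nearly equal log2 shares therefore covered very different parts of the rise in level.

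The 2 scales also ordered members of weak and strong ABA response differently. In the 35 members with a log2 ratio of ABA to mock of 2 to 3, the median log2 share was 0.530 and the median linear share 31.8%. For the 16 members from 3 to 4 the medians were 0.576 and 31.1%, and for the 21 members at 4 or above they were 0.620 and 20.9%. The log2 share was thus highest, and the linear share lowest, where the ABA response was strongest. At a fixed log2 share in the band, the linear share falls by arithmetic as the ABA response grows. The parting of the 2 scales is therefore built in and is not a trait of these genes. Grouped by mock level, the 18 members under 5 CPM had medians of 0.608 and 19.8%, the 31 from 5 to 15 CPM 0.555 and 28.7%, and the 23 at 15 CPM or more 0.566 and 33.7%. The share and the ABA response contain the same mock and ABA values, so these medians are a description and no relation was tested.

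**Figure D5:**
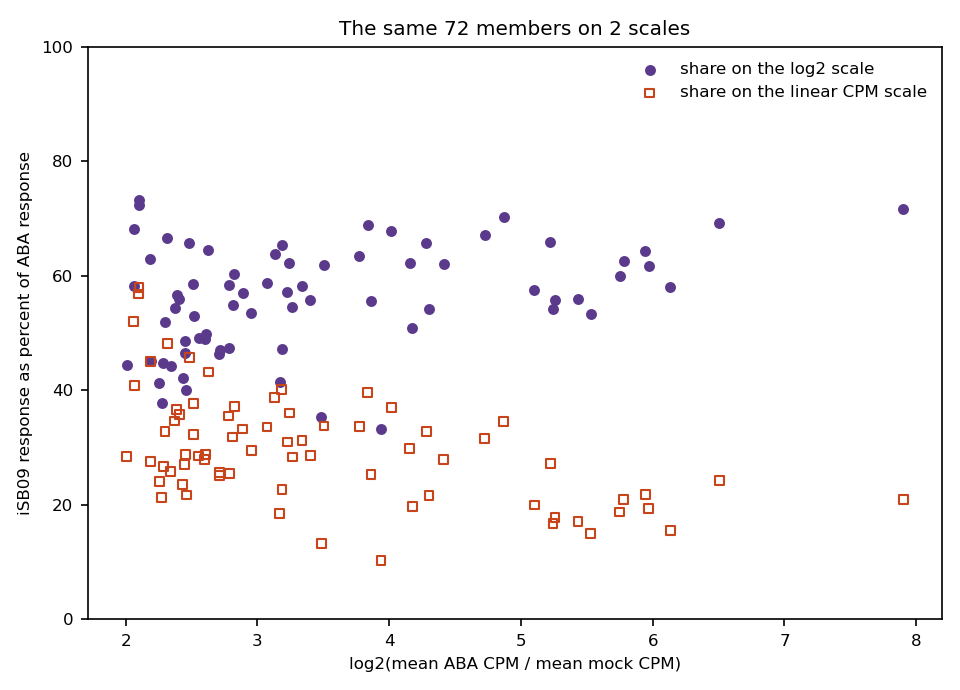
iSB09 response as a percentage of the ABA response (vertical) against the log2 ratio of ABA to mock (horizontal) for the 72 members, on the log2 scale (filled circles) and on the linear CPM scale (open squares). At the left the 2 sets of points overlap, and at the right they part: at the largest ABA response the linear share is 20.9% and the log2 share 0.717.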

How the data were processed

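Strand-specific mRNA libraries of whole seedlings were sequenced on DNBSEQ, per the labels' protocols. The authors deposited whole-number read counts per gene ID; FastQC, cutadapt, STAR and DESeq2 appear, with neither version nor role, in the submitters' processing notes. The sources used here give no build, annotation, counting tool or strand setting, so reads of overlapping genes or near-identical copies may be divided between IDs. By name, 9 of the table's columns matched samples; 3 columns matched no label and were not used, so the 3 iCB samples have no matched column and the fits hold 9 libraries.

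Levels are counts divided by the library total per 1000000 (CPM). Calls come from edgeR 4.0.16 in R 4.3.3 (TMM, filterByExpr, 1 term per treatment, two-sided quasi-likelihood F test, Benjamini-Hochberg over 21424 genes, threshold 0.05). Counts of 21424 genes were also simulated for ABA against mock, with few genes changed and the same fixed spread for all, not estimated from these data. There the test called 89% of genes changed by 1 and 98% of those changed by 2 on the log2 scale. It made 7 false calls among the genes left unchanged. These rates belong to that setting and need not hold for the measured counts. DESeq2 1.42.0 was an alternative. The members and lists were chosen with earlier results of these data known. Genes were named by rule: the 6 most abundant in ABA, the 6 with the largest ABA response, those nearest the limits and the median of the share, those on pathway lists, neighbours in ID numbering, and those with the largest or smallest spread; others are said to be named after their values were seen. No p-value of a single member is given. Replicate numbers occur in every group, but nothing states what they share. No sequence of these genes was used.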

Additional observations from a re-analysis of the deposited data

How the results depend on the processing

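The set held 74 genes with TMM-scaled levels, 71 with group medians in place of means and 68 with limits of 0.30 and 0.70 on the share; with 1 library left out it held 64 to 80. The median log2 share stayed between 0.553 and 0.579 with 1 library left out, and was 0.565 with TMM, 0.558 with medians and 0.551 with 1 CPM added before the log. The median linear share, examined under alternatives chosen after seeing the data, was 26.7% to 30.2% with 1 library left out, and 68 to 72 members were ordered without overlap. Of 384 shares of 32 named genes recomputed under these alternatives, 371 moved by less than the SD over iSB09 libraries and 13 by more. The largest change was 0.138. Leaving out 1 iSB09 library could hardly move a share by an SD taken over those same libraries, and in no named gene did it. That SD is also wide in variable genes. Solyc08g067960.3 moved from 0.733 to 0.811 without iSB09 replicate 1, out of the band, and is among the 371. The count of 371 therefore does not show that the shares were stable.

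Members called numbered 72 for ABA against mock in every alternative run, 66 to 71 for iSB09 against mock and 55 to 70 for iSB09 against ABA. Over all genes, with 1 library left out, calls were 1550 to 2226 higher in ABA, 410 to 563 higher in iSB09 than mock, and 517 to 906 lower in iSB09 than ABA. The last fell by over 1.5 times, from 879 to 517 and 529, without ABA replicate 1 and 2. DESeq2 on all libraries called more genes than these ranges, with 2270, 835 and 1097 in the same order, beside 2091, 564 and 879 with edgeR. Same-numbered libraries of different groups had correlations of their deviations between -0.343 and 0.464 over 12723 genes, highest between mock and iSB09 replicate 3. The correlations had no common sign, and the numbers were not taken to pair the samples. Differently numbered libraries were not set beside them, so whether a replicate number marks a shared batch was not tested. With a replicate block 72, 69 and 67 members were called in the 3 comparisons, and 1964, 527 and 816 genes in all.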

Other observations

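Tomato gene IDs carry the chromosome and number genes along it, so neighbours can be read from the IDs. Chromosome 3 held 15 of the 72 members, or 20.8%, beside 10.4% of tested genes, and chromosome 4 held 10, or 13.9%, beside 8.50%. These were picked for the largest excess. Among the chromosomes that went the other way, 2, 6 and 8 held 5.56%, 4.17% and 2.78% of members beside 10.8%, 8.82% and 7.26% of tested genes. No test was made. Members with no ID between them in the table were Solyc01g105767.1 and Solyc01g105770.2, Solyc03g005200.3 and Solyc03g005210.4, and Solyc04g014320.1 and Solyc04g014330.1, with Solyc04g014290.1 2 IDs away from the last pair. Solyc04g014280.1, at 49.3 CPM in ABA just under the level limit, also has an ID close to these.

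Some members adjacent in the ID numbering had like ratios between iSB09 libraries, and others did not. The log2 ratio of iSB09 replicate 2 to replicate 3 was 1.44 in Solyc01g105767.1 and 1.36 in Solyc01g105770.2. It was 1.15 in Solyc04g014290.1, 1.14 in Solyc04g014320.1 and 1.07 in Solyc04g014330.1. These 5 are among the 10 members at least 2-fold higher in replicate 2. In Solyc03g005200.3 and Solyc03g005210.4 it was 0.14 and 0.41. Solyc09g065420.3, with a log2 share of 0.639, lies beside Solyc09g065430.4, which at 0.754 was outside the set; their ratios were 1.05 and 0.27. Reads may be divided between adjacent copies of similar sequence, and whether that contributes was not tested.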
